A study of Fukomys damarensis and Heterocephalus glaber and Cavia porcellus with 28 samples.

Results

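Marker genes of white blood cells and of Kupffer cells, the resident macrophages of the liver, were followed across 4 rodent species in heart and liver. The list held 41 genes named for their cell type: 15 macrophage, 9 T cell, 4 B cell, 6 natural killer (NK) cell and 5 neutrophil genes, and 2 genes of leukocytes in general or their progenitors. Of these, 25 had a row among the 13928 rows of each tissue's table, matched through the mouse gene identifier. The other 16 were Adgre1, Marco, Timd4, Vsig4, Clec4f, Fcgr1, Itgam, Itgax, Cd4, Cd8a, Cd5, Nkg7, Ncr1, Prf1, S100a8 and S100a9, and were not analysed here. The Kupffer cell genes Clec4f, Timd4, Vsig4 and Marco are among them, which left mainly Cd5l and Cd163 for that cell type. Cd163 had at most 14 reads in any liver outside the mouse.

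The species were the naked mole-rat (Heterocephalus glaber) and the Damaraland mole-rat (Fukomys damarensis), which are subterranean African rodents, with the guinea pig (Cavia porcellus) and the mouse (Mus musculus) as outgroups. RNA came from frozen tissue pieces, and ribosomal RNA was removed before sequencing. The naked mole-rat gave 3 hearts and 4 livers, the Damaraland mole-rat 5 of each, the guinea pig 3 of each, and the mouse 3 hearts and 2 livers. These 28 libraries came from 18 animals, of which 10 gave both tissues, and replicates within a tissue were different animals. Naked mole-rats were 13 to 17 months old, Damaraland mole-rats 36 to 48 months, guinea pigs 2.3 months and mice 2 months, so species and age cannot be told apart. All were males except 1 Damaraland mole-rat that gave liver replicate 4. One Damaraland animal carries 48 months on its heart label and 36 months on its liver label.

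Macrophages live in most organs. In the liver they line the sinusoids as Kupffer cells, where they clear particles, bacteria and old red cells from the blood, and in the heart they lie between the muscle cells. T and B cells carry antigen receptors whose signals pass through CD3 and CD79 chains, NK cells kill infected or stressed cells without such a receptor, and neutrophils are short-lived phagocytes delivered by the blood. In bulk tissue, fewer cells of a type and less RNA per cell cannot be told apart.

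Values are the deposited log2-like values, on which a gene with 0 reads sits at a floor of 5.36 in heart and 4.29 in liver. Reads were recovered exactly from these values, and scaled reads are those reads after division by the size factor of their library. Differences of rare genes are compressed: doubling 10 reads raised the value by 0.282 in heart and 0.392 in liver, whereas doubling 1000 reads raised it by 0.946 and 0.973. Total reads ran from 4089633 to 26985779 per heart library, with naked mole-rat replicate 3 the lowest, and from 11220505 to 21467939 per liver library. The same scaling was applied to all genes of a library, with no correction for gene length, so gene models and species cannot be told apart when species are compared. The tissue labels held: 7 cardiomyocyte genes summed to 455575 or more scaled reads in every heart library and to 3405 or less in every liver library, and 6 hepatocyte genes to 884640 or more in liver and 31383 or less in heart.

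Each tissue was fitted with limma across all genes whose mean lay at least 1 above the floor, which left 10667 genes in heart and 10887 in liver. A gene was called when its Benjamini-Hochberg adjusted p was under 0.05 and the difference was at least 1 on the log2-like scale. In heart, 7 of the 25 genes passed the filter: Ptprc and the macrophage genes Cd68, Csf1r, Cd163, Mrc1, Cd14 and Spi1. In liver, 14 passed: all 7 macrophage genes, Cd3e, Cd3g, Lck, Cd79a, Il2rb, Csf3r and Ptprc. The 18 genes below the filter in heart had at most 199 reads in any library, and the 11 in liver at most 90. Of the genes that passed, 4 did so only through the species in which they were highest, and so had to differ: Cd68 in heart through the mouse (mean 6.19 over the other 11 hearts, with the filter at 6.36), Cd163 in liver through the mouse (4.78 over the other 12 livers, with the filter at 5.29), and Cd3e and Cd3g in liver through the guinea pig (5.04 and 5.17 over the other 11 livers). Their calls describe that entry and are no separate support, and counts that hold them are read with this limit.

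None of the marker genes tested was shifted in both mole-rats, which required a call with 1 sign in each of the 4 comparisons between a mole-rat and an outgroup species. That count was 0 of 7 in heart, where 4.68% of all genes tested met the rule, and 0 of 14 in liver, where 6.29% did. At an unadjusted limma p under 0.05 in all 4 contrasts the counts were also 0 and 0. At an adjusted p under 0.05 without the size threshold, 14.8% of all heart genes and 15.9% of all liver genes met the rule. In the average contrast, the mean of the mole-rats minus the mean of the outgroups, 5 of 14 genes were called in liver, against 28.1% of all genes. Cd14 was higher in the mole-rats, and Cd3e, Cd163, Cd5l and Cd79a were lower. Cd3e and Cd163 were in this test only through 1 outgroup species, as given above. In heart 0 of 7 were called by limma, against 23.4% of all genes, with 5 of the 7 at an unadjusted p under 0.05, all lower in the mole-rats. At an adjusted p under 0.05 without the size threshold the same 5 passed, where 67.3% of all heart genes did. The test on recovered reads (voom) called 3 of the 7, Cd68, Cd163 and Ptprc, where it called 36% of all genes.

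Single species were then compared. Between guinea pig and mouse liver 8 of 14 genes were called, against 37.2% of all genes, with 7 higher in the guinea pig and Cd163 lower. The 8 include Cd3e, Cd3g and Cd163, which passed the filter only through 1 of these species and are no separate support. Between naked and Damaraland mole-rat liver 5 of 14 were called, against 34.2%, with Cd5l, Cd14, Lck and Mrc1 higher in the naked mole-rat and Cd68 lower. In heart the mole-rats differed by 1 of 7, Cd163, against 29.4% of all genes. That count was 4 with voom, which added Csf1r, Ptprc and Spi1 and called 41.7% of all genes. It was 2 without guinea pig heart replicate 2 or 3, naked mole-rat replicate 1 or 2, or mouse replicate 2 or 3, each of which added Cd79a, and 3 without naked mole-rat replicate 3, which added Cd79a and Csf1r. Cd79a entered these fits only through the Damaraland hearts, where it was high, so its calls are no separate support. The share of all genes called was not counted for these fits. The guinea pig and mouse hearts differed by 0 of 7 with limma, against 32.1%. At an adjusted p under 0.05 without the size threshold 2 of the 7 passed, Cd68 and Spi1, where 59.6% of all genes did. An unadjusted p under 0.05 was reached by 4. Voom called Cd68 and Spi1 among 43.6% of all genes. Against single outgroups, the naked mole-rat liver had 5 of 14 called against the guinea pig (37.8% of all genes) and 5 against the mouse (41.2%). The Damaraland liver had 6 called against the guinea pig, all lower (36.2% of all genes), and 4 against the mouse (39.2%). For both mole-rats the liver counts against the guinea pig hold Cd3e and Cd3g, and those against the mouse hold Cd163, with the same limit. In heart, Cd163 was the 1 of 7 called between naked mole-rat and guinea pig (33% of all genes), and 0 were called by limma between Damaraland mole-rat and guinea pig (29.7%), with 2 at an unadjusted p under 0.05. The markers' shares of calls were not tested against those of all genes, and shares of all genes at an unadjusted p were not counted. The median average contrast was -0.58 over the 7 heart genes and -0.01 over all heart genes tested. In liver it was -0.29 over the 14 genes and 0.02 over all genes. In the plot of single contrasts below, no gene has all 4 of its points past 1 on the same side.

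**Figure D1:**
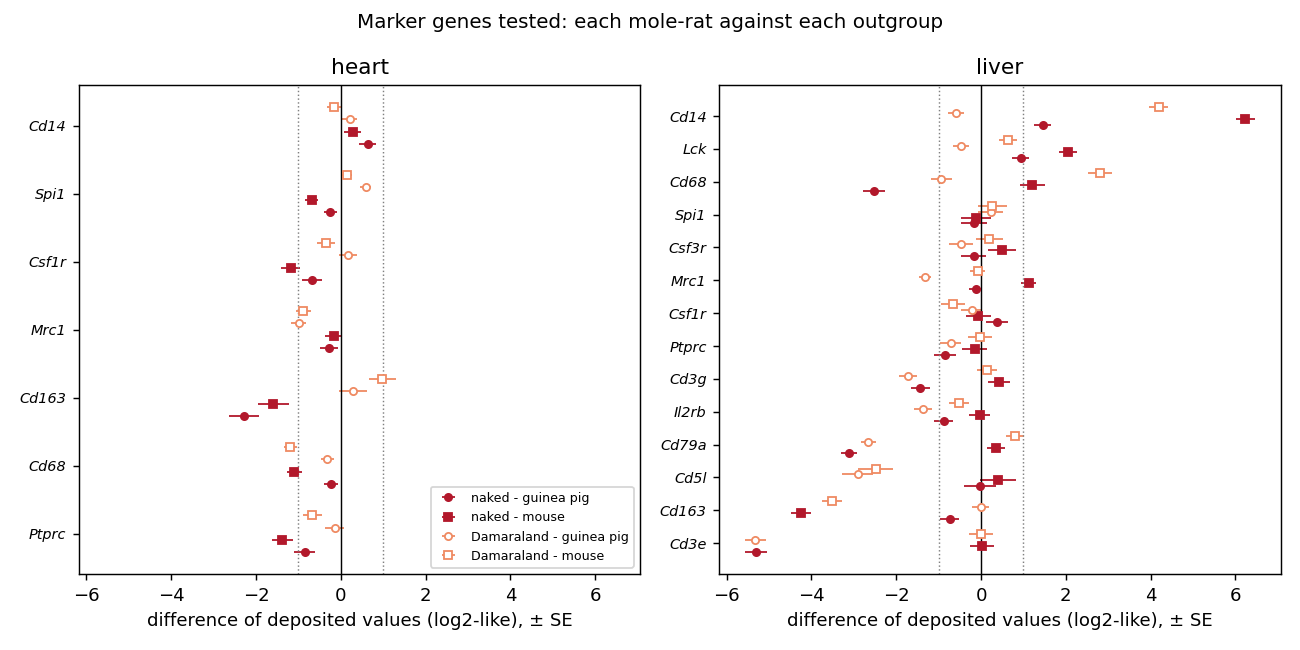
Differences of each mole-rat from each outgroup for the 7 genes tested in heart and the 14 in liver, in log2-like units with limma standard errors; dotted lines mark the size threshold of 1. Liver Cd14 runs from -0.60 (Damaraland minus guinea pig) to 6.24 (naked minus mouse), and liver Cd3e splits by outgroup, near 0 against the mouse and below -5 against the guinea pig.

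Ptprc (ENSMUSG00000026395) encodes CD45, the phosphatase on the surface of all nucleated blood cells, and served as the measure of leukocytes as a whole. In liver its values were 7.63, 7.63, 6.90 and 7.35 in the naked mole-rats, and 8.37, 7.59, 6.94, 7.19 and 7.44 in the Damaraland mole-rats. They were 8.22, 8.27 and 8.18 in the guinea pigs, and 7.53 and 7.53 in the mice. The guinea pig livers lay above all others but Damaraland replicate 1, and the remaining species overlapped. The average contrast in liver was -0.43 ± 0.19 (limma SE, adjusted p = 0.0572), and Ptprc was called in no liver comparison.

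In heart, Ptprc was 6.43, 6.93 and 6.96 in the naked mole-rats, and 7.57, 7.22, 7.24, 7.64 and 7.72 in the Damaraland mole-rats. It was 8.14, 7.46 and 7.26 in the guinea pigs, and 8.61, 7.98 and 7.85 in the mice. The naked mole-rat hearts were the lowest, with no overlap with the other species, and the mouse hearts overlapped the guinea pig range at its top. Mean scaled reads were 4.86-fold higher in mouse than in naked mole-rat heart, a called difference (naked minus mouse -1.37 ± 0.25, limma adjusted p = 0.000134). The naked mole-rat differed by -0.70 ± 0.22 from the Damaraland mole-rat (adjusted p = 0.0117) and by -0.84 ± 0.25 from the guinea pig (adjusted p = 0.00757), both under the size threshold. Flt3, a receptor of blood progenitors and dendritic cells, had at most 17 reads in any heart library and 29 in any liver library.

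**Figure D2:**
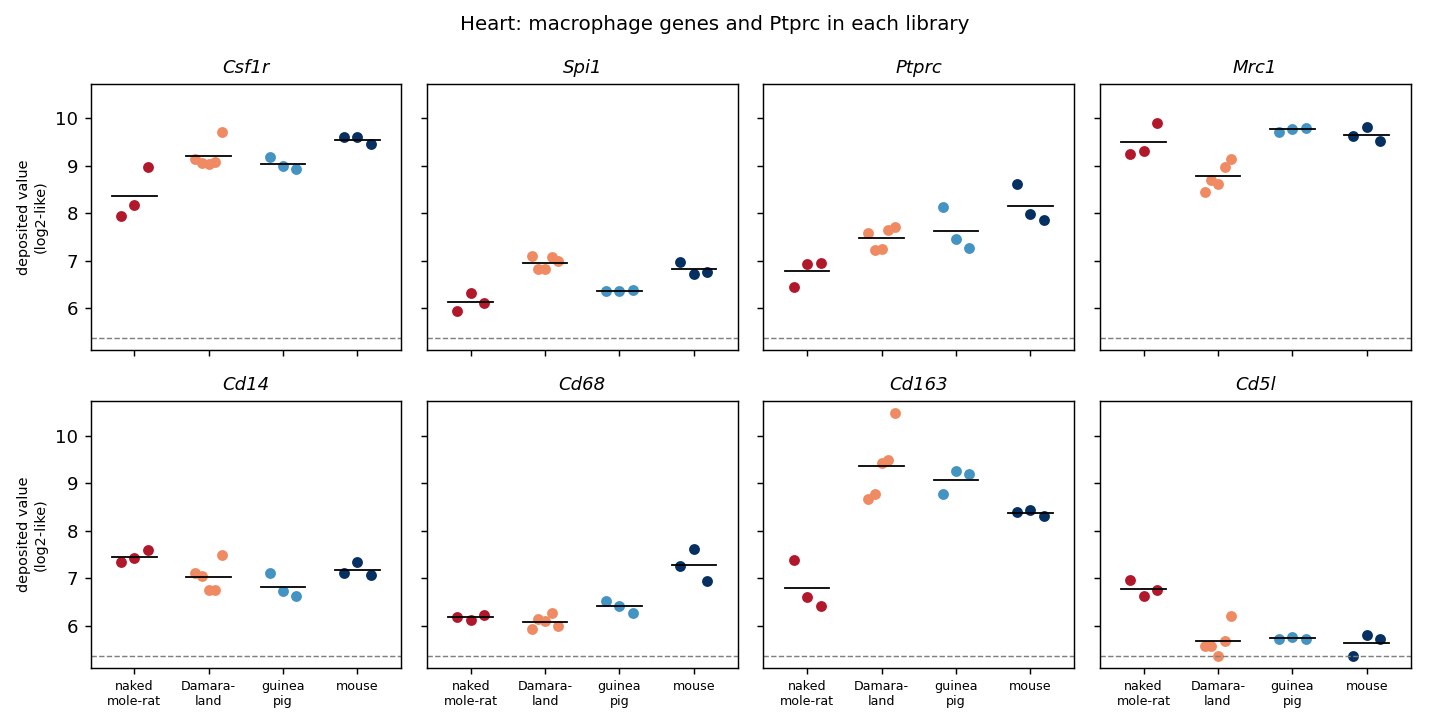
Heart: deposited log2-like values of 7 macrophage genes and Ptprc in each library by species (dots), with species means (bars) and the value of 0 reads (dashed line). Naked mole-rat hearts are low for Cd163 (6.40 to 7.38, against 8.30 or more elsewhere) and the only ones with Cd5l above 6.20.

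Among the macrophage genes of the heart, Cd163 stood out. Cd163 (ENSMUSG00000008845) encodes the scavenger receptor that takes up haemoglobin bound to haptoglobin and marks resident macrophages. Its heart values were 7.38, 6.59 and 6.40 in the naked mole-rats (112, 49 and 6 reads), and 8.66, 8.77, 9.42, 9.49 and 10.48 in the Damaraland mole-rats. In the guinea pigs they were 8.78, 9.26 and 9.19, and in the mice 8.40, 8.44 and 8.30. Every naked mole-rat heart lay below every heart of the other species. Mean scaled reads were 13.2-fold higher in the Damaraland mole-rat, 9.39-fold higher in the guinea pig and 5.18-fold higher in the mouse than in the naked mole-rat. The naked mole-rat differed by -2.57 ± 0.32 from the Damaraland mole-rat (limma adjusted p = 3.14e-06), by -2.28 ± 0.36 from the guinea pig (adjusted p = 3.85e-05) and by -1.59 ± 0.36 from the mouse (adjusted p = 0.000957). It was the 1 gene of the 7 called in the naked mole-rat against each of the other species, a rule that 9.02% of all heart genes met. Its call between the mole-rats held with each heart library left out in turn, including the shallow naked mole-rat replicate 3.

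Cd68 (ENSMUSG00000018774) encodes a lysosomal glycoprotein of macrophages. In heart it was 6.18, 6.12 and 6.22 in the naked mole-rats, and 5.92, 6.15, 6.10, 6.25 and 5.99 in the Damaraland mole-rats. It was 6.52, 6.42 and 6.26 in the guinea pigs and 7.26, 7.61 and 6.93 in the mice. The mouse hearts lay above all others (67 to 157 reads, against 4 to 43 elsewhere), and the mole-rats overlapped. The difference from the mouse was -1.09 ± 0.17 in the naked and -1.19 ± 0.15 in the Damaraland mole-rat (limma adjusted p = 3.21e-05 and 3.74e-06), in a gene that passed the filter only through the mouse. Against the guinea pig neither mole-rat was called (-0.23 ± 0.17 and -0.32 ± 0.15).

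The other 4 macrophage genes of the heart were called in at most 1 comparison each. Csf1r, the receptor for the growth factor that keeps macrophages alive, had means of 8.37 ± 0.55 (SD, n = 3) in the naked mole-rat, 9.21 ± 0.29 (n = 5) in the Damaraland mole-rat, 9.04 ± 0.13 (n = 3) in the guinea pig and 9.55 ± 0.09 (n = 3) in the mouse. It was called only between naked mole-rat and mouse (-1.18 ± 0.24, limma adjusted p = 0.000317). Against the mouse, the naked mole-rat heart had 4 of 7 genes called, all lower (Cd163, Cd68, Csf1r and Ptprc), where 38.2% of all genes were called. The Damaraland heart had Cd68 alone of the 7, where 34.9% were. Mrc1, the mannose receptor of macrophages and sinusoidal endothelium, was lowest in the Damaraland mole-rat (8.78 ± 0.28, n = 5), with -0.99 ± 0.18 against the guinea pig, just under the size threshold. Spi1, the transcription factor PU.1 of myeloid cells, was lowest in the naked mole-rat (6.12 ± 0.19, n = 3) and highest in the Damaraland mole-rat (6.95 ± 0.14, n = 5), with no call. Cd14, a co-receptor for bacterial lipopolysaccharide, ranged from 6.82 ± 0.25 in the guinea pig to 7.45 ± 0.12 in the naked mole-rat (n = 3 each), with no call.

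Erythroid markers varied with these groups. Their summed level over the 5 genes present of 15 listed was 636 to 1755 scaled reads in mouse hearts, 115 to 134 in naked mole-rat, 40.6 to 171 in Damaraland and 52.9 to 1056 in guinea pig hearts. Klf1 was at 0 in every mouse heart and Rhag in every naked mole-rat heart. Their part in the higher Ptprc and Cd68 of mouse hearts was not tested. Hepatocyte genes, given with Cd5l below, were highest in the naked mole-rat hearts, and their part in the lower Ptprc and Cd163 there was not tested. Guinea pig heart replicate 1 had the highest Ptprc, Cd3e, Cd79a, Cd2, Ms4a1, Il2rb and Csf3r reads among the guinea pig hearts.

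**Figure D3:**
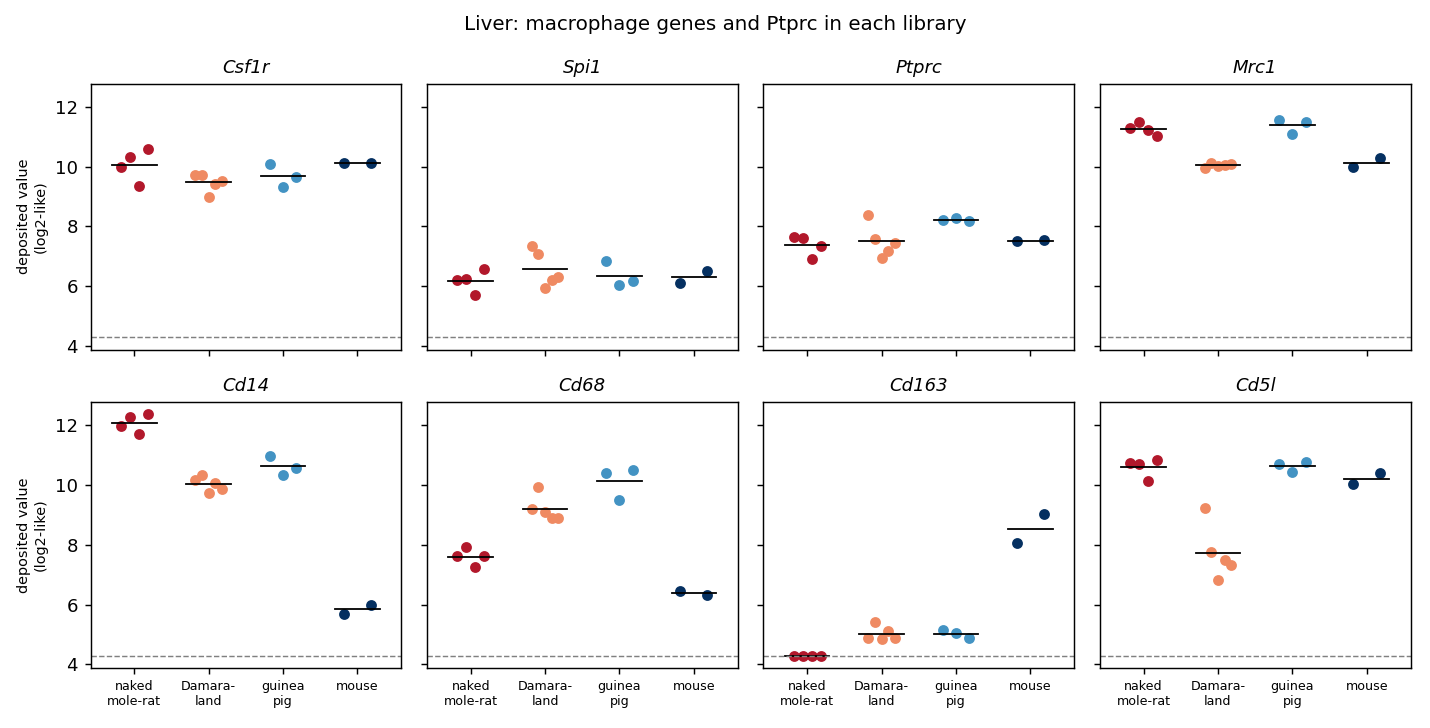
Liver: deposited log2-like values of 7 macrophage genes and Ptprc in each library by species (dots), with species means (bars) and the value of 0 reads (dashed line). Spi1 overlaps between all species, and Csf1r and Ptprc are called in no comparison, whereas Cd14 and Cd68 are low in the mouse, Cd163 is high in the mouse and Cd5l is low in the Damaraland mole-rat.

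In liver the macrophage genes went separate ways in each species. Csf1r had means from 9.47 ± 0.30 (SD, n = 5) in the Damaraland mole-rat to 10.12 ± 0.01 (n = 2) in the mouse, and Spi1 from 6.19 ± 0.36 (n = 4) in the naked mole-rat to 6.57 ± 0.60 (n = 5) in the Damaraland mole-rat. Neither was called in any liver comparison. The other 5 macrophage genes, Cd68 among them, were each called in at least 1 liver comparison.

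Cd14 (ENSMUSG00000051439) had the largest average contrast among the macrophage genes. Its liver values were 11.97, 12.27, 11.70 and 12.37 in the naked mole-rats (3550 to 7220 reads), and 10.17, 10.32, 9.74, 10.07 and 9.85 in the Damaraland mole-rats (833 to 1351 reads). They were 10.97, 10.34 and 10.57 in the guinea pigs (1521 to 2803 reads), and 5.69 and 5.99 in the mice (17 and 42 reads). The naked mole-rat was above and the mouse below every other library, and each was called against all other species, rules that 10.3% of liver genes met for the naked mole-rat and 12.2% for the mouse. The average contrast was 2.82 ± 0.15 (limma adjusted p = 3.7e-11), but it mixed opposite relations: the Damaraland mole-rat was 4.19 ± 0.22 above the mouse and differed by -0.60 ± 0.19 from the guinea pig. Mean scaled reads in the naked mole-rat were 4.28-fold those of the Damaraland mole-rat, 2.78-fold those of the guinea pig and 172-fold those of the mouse. The naked minus Damaraland difference was 2.05 ± 0.17 (adjusted p = 1.67e-08), and the guinea pig was 4.78 ± 0.24 above the mouse (adjusted p = 3.62e-11).

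Cd68 in liver was 7.63, 7.93, 7.25 and 7.61 in the naked mole-rats, and 9.18, 9.93, 9.09, 8.88 and 8.90 in the Damaraland mole-rats. It was 10.39, 9.48 and 10.51 in the guinea pigs and 6.46 and 6.32 in the mice. The order was mouse, naked mole-rat, Damaraland mole-rat and guinea pig, and only the ranges of the last pair overlapped. The naked minus Damaraland difference was -1.59 ± 0.23 (limma adjusted p = 1.18e-05). The guinea pig was 3.74 ± 0.32 above the mouse (adjusted p = 2.77e-08), a 23-fold ratio of mean scaled reads, and the mouse was called lower than each of the others. The average contrast was 0.14 ± 0.20, since the outgroups lay on either side of the mole-rats.

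Cd5l (ENSMUSG00000015854) encodes a secreted scavenger protein, also called AIM, that is made by Kupffer cells and other tissue macrophages. Its liver values were 10.75, 10.71, 10.14 and 10.83 in the naked mole-rats, and 9.23, 7.75, 6.81, 7.48 and 7.33 in the Damaraland mole-rats. They were 10.70, 10.43 and 10.76 in the guinea pigs and 10.02 and 10.38 in the mice. All 5 Damaraland livers lay below all others, with 107 to 505 reads against 849 to 2500, and replicate 1 was the highest of them. The naked mole-rat was 2.89 ± 0.33 above the Damaraland mole-rat (limma adjusted p = 7.1e-07), a 7.15-fold ratio of mean scaled reads. The Damaraland mole-rat was also called lower than the guinea pig (-2.91 ± 0.36) and the mouse (-2.48 ± 0.42), and met the rule for a shift in 1 species that 8.81% of liver genes met. The naked mole-rat differed from the guinea pig by -0.02 ± 0.38 and from the mouse by 0.41 ± 0.43, neither called.

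Cd163 in liver was read only in passing outside the mouse. It had 0 reads in all 4 naked mole-rat livers, 3 to 14 in the Damaraland livers, 5 to 10 in the guinea pig livers, and 193 and 663 in the mouse livers. Mean scaled reads in the mouse were 62-fold those of the Damaraland mole-rat and 65.7-fold those of the guinea pig. They were at least 506-fold higher in the mouse than in the naked mole-rat, taking 3 reads over the 4 naked mole-rat libraries together as the limit that a count of 0 allows. The differences from the mouse were -4.25 ± 0.24 for the naked mole-rat, -3.51 ± 0.24 for the Damaraland mole-rat and -3.51 ± 0.26 for the guinea pig (limma adjusted p from 1.53e-10 to 4.84e-09). The gene's place in the test rests on the mouse: without either mouse liver library its mean fell below the filter and it was not tested. Erythroid markers summed to 1599 to 1985 scaled reads in the mouse livers and to 45.2 to 239 in the other livers, with none of the 5 at 0 in every mouse liver; their part in the mouse Cd163 was not tested.

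Mrc1 in liver had means of 11.26 ± 0.20 (SD, n = 4) in the naked mole-rat, 10.06 ± 0.07 (n = 5) in the Damaraland mole-rat, 11.38 ± 0.25 (n = 3) in the guinea pig and 10.14 ± 0.22 (n = 2) in the mouse. The naked mole-rat and guinea pig thus formed the high pair and the Damaraland mole-rat and mouse the low pair. All 4 differences between the pairs were called, at 1.20 ± 0.14 (naked minus Damaraland), 1.12 ± 0.18 (naked minus mouse), 1.25 ± 0.19 (guinea pig minus mouse) and -1.32 ± 0.15 (Damaraland minus guinea pig), and the differences within the pairs were -0.12 ± 0.16 and -0.08 ± 0.17. Summed over the 7 macrophage genes, scaled reads were 7455 to 10895 in naked mole-rat, 2904 to 4353 in Damaraland, 6064 to 8962 in guinea pig and 3395 to 4187 in mouse livers. The naked mole-rat and guinea pig sums overlapped, as did those of the Damaraland mole-rat and mouse, and the pairs did not overlap with each other. Most of the naked mole-rat sum was Cd14 and Mrc1, with mean scaled reads of 4353 and 2425, while Cd14 had 25.2 in the mouse. The sums thus follow the abundant genes and are no measure of macrophage number. Heart sums were 961 to 1511 in the naked mole-rat, 1227 to 2774 in the Damaraland mole-rat, 1742 to 1844 in the guinea pig and 1676 to 2041 in the mouse.

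Cd163 and Cd5l kept no common order in heart and liver. The tables were transformed separately, so RPM, the reads scaled to a library total of 1000000 recovered reads, are given side by side without a test. Cd163 was 25.1 to 100.6 RPM in Damaraland hearts and 0.222 to 0.914 in Damaraland livers, and 27.0 to 43.0 and 0.233 to 0.507 in guinea pig hearts and livers. In the mouse it was 12.0 to 14.8 in heart and 17.2 and 36.1 in liver. The naked mole-rat had 1.47 to 5.86 in heart and 0 in liver. In the mole-rats and the guinea pig every heart thus lay above every liver, and in the mouse both livers lay above all hearts.

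Cd5l was read mainly in liver, with 5.93 or more RPM in every liver library and at most 3.46 in every heart library. The naked mole-rat hearts had 66, 51 and 11 reads (values 6.96, 6.62 and 6.75), against 0 to 9 reads in the hearts of the other species, and the gene lay below the filter in heart. Hepatocyte genes were also highest in the naked mole-rat hearts, where the 6 present of 8 listed summed to 11057 to 31383 scaled reads. They summed to 3529 to 6924 in Damaraland, 3853 to 5532 in guinea pig and 354 to 1218 in mouse hearts, with none at 0. Alb, the most abundant of them, was 14.68, 13.09 and 14.66 in the naked mole-rat hearts, against 8.28 to 12.19 in the other hearts. Their part in the Cd5l reads of these hearts was not tested.

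**Figure D4:**
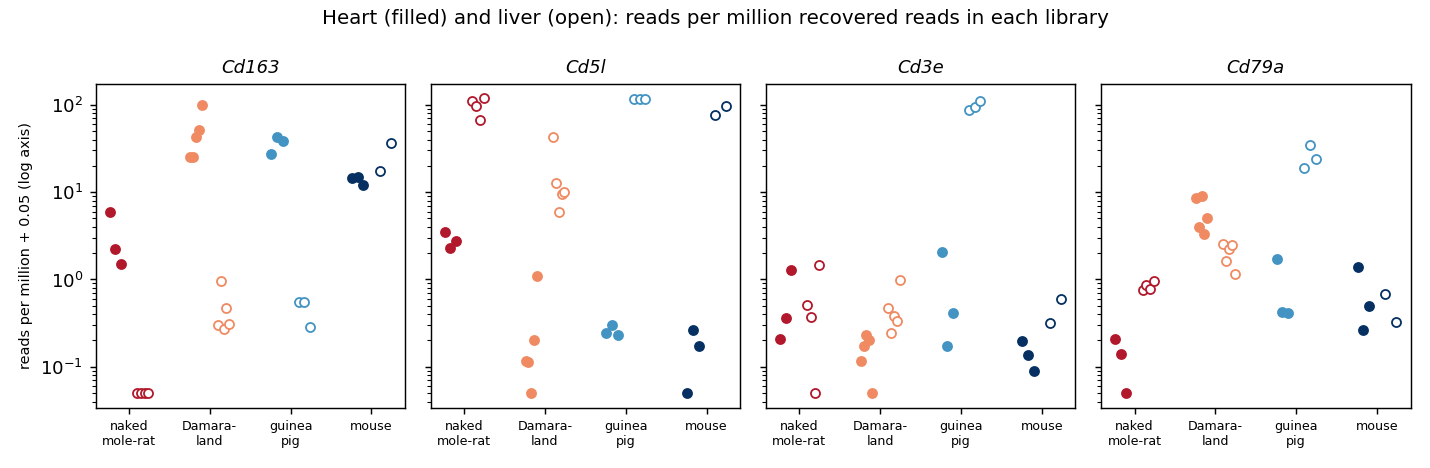
RPM, plus 0.05 and on a log axis, for Cd163, Cd5l, Cd3e and Cd79a in every heart (filled) and liver (open) library by species. Cd163 is higher in heart than in liver in all species but the mouse, Cd3e stands out in guinea pig liver, and Cd79a is high in guinea pig liver and Damaraland heart.

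T cell genes were read at low levels with 1 exception. Cd3e (ENSMUSG00000032093) encodes the epsilon chain of CD3, which joins the delta and gamma chains to carry the signal of the T cell receptor. Its liver values were 5.14, 5.05, 4.29 and 5.73 in the naked mole-rats, and 5.05, 4.83, 4.96, 4.95 and 5.38 in the Damaraland mole-rats. They were 10.27, 10.12 and 10.67 in the guinea pigs and 4.90 and 5.15 in the mice. The guinea pig livers held 1301 to 2347 reads, and no other liver held more than 29. Mean scaled reads in the guinea pig were 153-fold those of the naked mole-rat, 226-fold those of the Damaraland mole-rat and 239-fold those of the mouse. The guinea pig was 5.33 ± 0.31 above the mouse (limma adjusted p = 2.64e-10), and the average contrast was -2.65 ± 0.19 (adjusted p = 2.39e-09), while the mole-rats and the mouse differed from one another by at most 0.02. The gene passed the filter only through the guinea pig livers, so these tests rest on the group in which it was high.

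The partner chains differed less. Cd3g in guinea pig liver had 80, 75 and 184 reads against 1 to 23 in the other livers, and was called higher there than in each other species, with mean scaled reads 6.76-fold to 18.2-fold higher. Cd3d had 6, 2 and 13 reads in the guinea pig livers and 0 to 13 in the others, so that chain overlapped between species at this depth. Cd3e, Cd3g and Cd79a were the 3 of 14 genes called in guinea pig liver against every other species, a rule met by 9.38% of liver genes. Cd3e and Cd3g passed the filter only through the guinea pig, so only Cd79a of the 3 could have been tested without it. Lck, the kinase that starts T cell receptor signalling, was instead highest in the naked mole-rat liver, with 92 to 129 reads against 42 to 70 in the guinea pig, 13 to 32 in the Damaraland mole-rat and 4 and 9 in the mouse. The naked mole-rat was 1.41 ± 0.17 above the Damaraland mole-rat (limma adjusted p = 1.21e-06) and 2.05 ± 0.22 above the mouse (adjusted p = 3.46e-07), and 0.94 ± 0.19 above the guinea pig, under the size threshold. Zap70, the next kinase in the pathway, lay below the filter and had 29 and 90 reads in the mouse livers against 1 to 21 elsewhere. Cd2, an adhesion receptor of T and NK cells, had at most 19 reads in any liver. The T cell genes called in liver thus named a different high species for CD3 and for Lck.

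**Figure D5:**
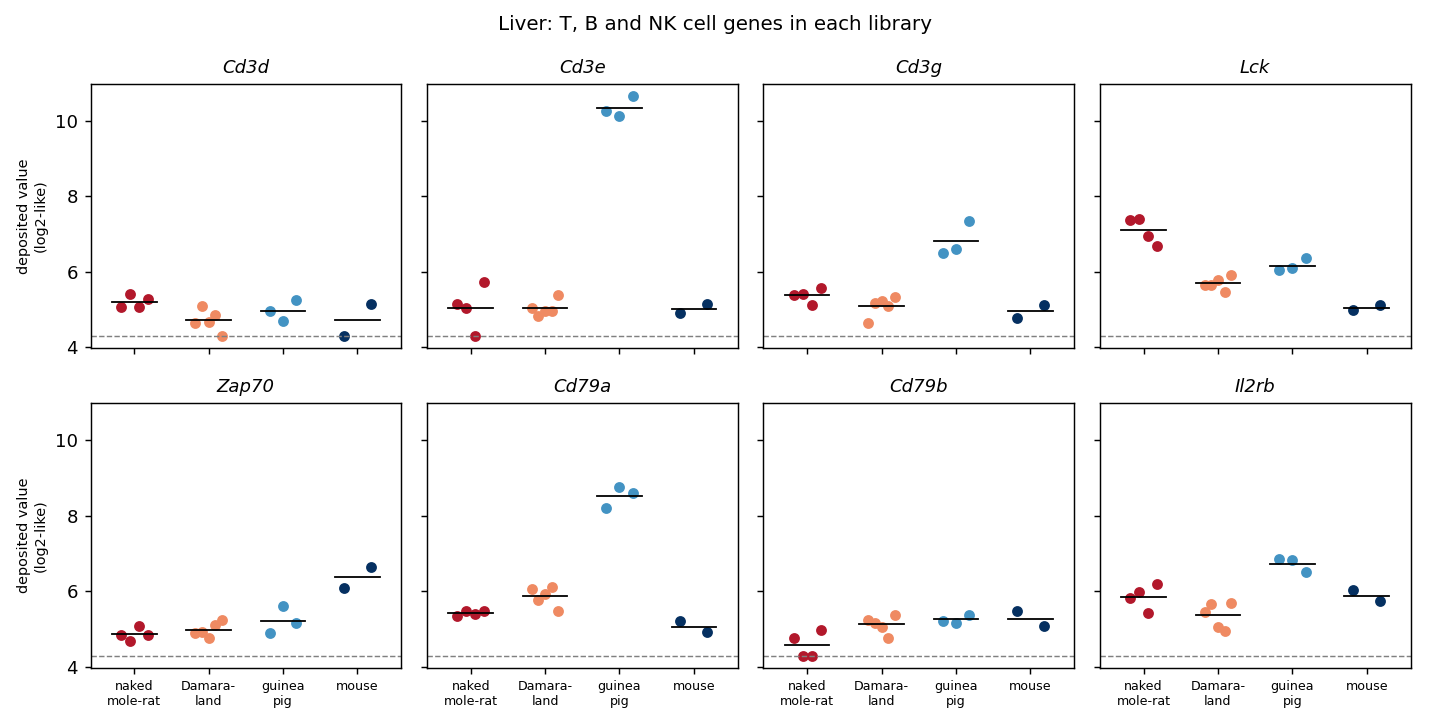
Liver: deposited log2-like values of 5 T cell genes, 2 B cell genes and Il2rb in each library by species (dots), with species means (bars) and the value of 0 reads (dashed line). Guinea pig livers are high for Cd3e (10.12 to 10.67) and Cd79a (8.21 to 8.76) and lie among the other species for Cd3d and Cd79b.

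In heart no T cell gene passed the filter. Cd3e had 3, 7 and 5 reads in the naked mole-rats, 1, 2, 4, 2 and 0 in the Damaraland mole-rats, 41, 2 and 6 in the guinea pigs and 4, 2 and 1 in the mice. These ranges overlapped, and guinea pig replicate 1 was the highest. The high Cd3e of guinea pig liver had no counterpart in guinea pig heart, at 0.124 to 2.00 RPM against 86.9 to 109 in liver. After scaling for depth, Cd3g had 55.0, 42.8 and 14.8 scaled reads in the naked mole-rat hearts and at most 7.86 in the others, and Cd3d had 13.5, 18.8 and 18.5 against at most 7.80. Both chains thus lay above every other heart in all 3 naked mole-rats, from 4 to 66 and 5 to 29 reads. Lck had 15.2, 13.0 and 18.5 scaled reads there, which overlapped the 9.20 to 18.2 of the guinea pigs, and at most 7.95 in the Damaraland mole-rats and mice. The 6 T cell genes together summed to 77.8 to 90.5 scaled reads in naked mole-rat, 9.50 to 18.3 in Damaraland, 20.7 to 78.0 in guinea pig and 13.6 to 35.2 in mouse hearts. The naked mole-rat sums overlapped with guinea pig replicate 1 alone, and none of these differences was tested, since the genes lay below the filter. Cd2 had 0 reads in all 3 naked mole-rat hearts, where 0 to 21 were read in the other species.

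Cd79a (ENSMUSG00000003379) encodes a signalling chain of the B cell receptor, and Cd79b its partner. In liver Cd79a was 5.34, 5.47, 5.39 and 5.47 in the naked mole-rats, and 6.06, 5.76, 5.92, 6.12 and 5.47 in the Damaraland mole-rats. It was 8.21, 8.76 and 8.60 in the guinea pigs and 5.21 and 4.91 in the mice. The guinea pig livers held 368, 480 and 515 reads and no other liver more than 39. The guinea pig was 3.46 ± 0.23 above the mouse (limma adjusted p = 1.01e-09), and its mean scaled reads were 12.6-fold to 56.3-fold those of the other species. The average contrast was -1.15 ± 0.14 (adjusted p = 1.37e-06). Cd79b had 12, 9 and 17 reads in the guinea pig livers and 0 to 12 in the others, which overlapped.

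The summed platelet and megakaryocyte genes were also higher in guinea pig liver, mostly through 1 gene. The 3 present of 10 listed summed to 1025 to 1304 scaled reads in the guinea pig livers, with none at 0. In the other livers they summed to 69.1 to 188, and Treml1 was at 0 in both mice. Most of the guinea pig sum was Itgb3, an integrin gene with a mean value of 10.16 there against 6.88 to 7.43 in the other species. Erythroid markers did not stand apart in the guinea pig livers, at 80.4 to 239 scaled reads. The part of platelet genes in the guinea pig Cd3e and Cd79a was not tested.

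In heart Cd79a lay below the filter and was highest in the Damaraland mole-rat. It had 126, 64, 199, 43 and 43 reads there, 3, 2 and 0 in the naked mole-rats, 34, 6 and 6 in the guinea pigs and 36, 5 and 11 in the mice. Every Damaraland heart lay above every other heart, and mean scaled reads were 63-fold those of the naked mole-rat, 7.69-fold those of the guinea pig and 6.6-fold those of the mouse. Cd79b had 2 to 7 reads in the same Damaraland hearts and 9 to 53 in the mouse hearts. Ms4a1, the CD20 antigen of B cells, had 0 to 4 reads in the Damaraland hearts and 16 to 50 in the mouse hearts. Pax5, the transcription factor of B cell identity, had 61, 3 and 52 reads in the mouse hearts, at most 10 in the other hearts, and 0 in all 4 naked mole-rat livers. The B cell genes of the heart therefore did not share a highest species: Cd79a was highest in the Damaraland mole-rat, and the other 3 had their highest counts in the mouse.

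Of the NK cell genes only Il2rb, the shared beta chain of the receptors for interleukins 2 and 15, passed the filter, and only in liver. Its means were 5.85 ± 0.33 (SD, n = 4) in the naked mole-rat, 5.37 ± 0.34 (n = 5) in the Damaraland mole-rat, 6.73 ± 0.18 (n = 3) in the guinea pig and 5.89 ± 0.20 (n = 2) in the mouse. It was called between Damaraland mole-rat and guinea pig (-1.37 ± 0.21, limma adjusted p = 2.63e-05) and in no other contrast of 2 species. In heart Il2rb had 72, 37 and 34 reads in the guinea pigs and at most 17 in the others. Eomes, a transcription factor of NK and killer T cells, had 9, 19, 21, 43 and 14 reads in the Damaraland hearts and 0 to 3 in every other heart. Tbx21, its relative T-bet, had at most 14 reads in any library of either tissue.

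Neutrophil genes were scarce. Csf3r, the receptor for granulocyte colony-stimulating factor, passed the filter in liver, with means from 5.55 ± 0.20 (SD, n = 2) in the mouse to 6.21 ± 0.53 (n = 3) in the guinea pig, and was called in no comparison. In heart it had 54, 6 and 5 reads in the guinea pigs, 46, 10 and 10 in the mice and at most 10 in the mole-rats, so 1 library led in each outgroup. The granule genes Mpo and Elane, which are transcribed in the marrow and largely silent in mature neutrophils, had at most 12 reads in any library. Elane had 0 reads in all 3 mouse hearts.

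Further immune genes, in lists beyond the 41 markers, were counted in the same fits. In the average contrast of heart, 10.8% of all genes were higher in the mole-rats and 12.6% lower, and the list counts are to be read against these shares. Of 20 other myeloid genes tested 1 was higher and 3 were lower. Cx3cr1, 1 of the 3, had a mean of 7.90 in the mouse and 5.93 to 6.98 in the others. Over the hearts of the other species together its mean lay below the filter of 6.36, so its call is no separate support. Genes of these lists were not all checked for passing the filter through 1 species, in heart or in liver. Cd74, the invariant chain that guides MHC class II molecules, was lower (-3.67 ± 0.20, limma adjusted p = 1.13e-10), and it was lower in both mole-rats against both outgroups. Among 7 antigen presentation genes 2 were lower and 0 higher, among them the class II chain H2-Ab1 (-2.42 ± 0.20, adjusted p = 1.7e-08), again in both mole-rats. The class II regulator Ciita was lower (-1.08 ± 0.12), with a mean of 8.26 in the guinea pig against 6.22 to 6.65 in the others. Leukocyte adhesion and signalling genes gave 1 higher and 4 lower of 15, with Lcp1 (-1.53 ± 0.17), Runx1 (-1.16 ± 0.31) and Syk (-1.16 ± 0.12) lower. Syk had a mean of 9.09 in the mouse and 6.74 to 7.61 in the others. Of 5 colony-stimulating factor and chemokine genes 2 were lower, Cxcl12 (-2.24 ± 0.15) and Il15 (-1.76 ± 0.12). The Il15 mean was 8.90 in the mouse and 5.73 to 6.33 in the others, below the filter of 6.36. Il15 was thus tested only through the mouse, and its call is no separate support. The Cxcl12 mean was 7.07 in the Damaraland heart and 11.39 to 11.66 in the others, so the difference came from 1 mole-rat species. In the average contrast limma called 0 of 4 neutrophil and 0 of 2 B cell genes, and of 3 T cell genes Thy1 was lower. Thy1 had a mean of 9.27 in the guinea pig and 6.75 to 7.57 in the others. Between the mole-rats, 3 of the 4 neutrophil genes were lower in the naked mole-rat, where 14.2% of all heart genes were higher and 15.2% lower.

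In liver the same lists were counted, where 15.1% of all genes were higher in the mole-rats in the average contrast and 13% lower. Of 20 other myeloid genes 3 were higher and 3 lower. Hmox1, the haem-degrading enzyme, was higher by 1.73 ± 0.18 (limma adjusted p = 2.13e-07), and the fungal receptor Clec7a by 1.37 ± 0.22 (adjusted p = 2.47e-05). Hmox1 had a mean of 7.71 in the mouse and 9.40 to 10.53 in the others. Clec7a had a mean of 8.17 in the naked mole-rat and 5.39 to 6.29 in the others, with the Damaraland mole-rat below the mouse. Cd74 was lower (-1.51 ± 0.20, adjusted p = 4.42e-06), and the guinea pig mean of 11.09 exceeded the 7.93 to 9.59 of the others. Between the mole-rats, 9 of the 20 were higher and 0 lower in the naked mole-rat, where 16.6% of all liver genes were higher and 17.6% lower. Neutrophil and granulocyte genes gave 4 higher and 0 lower of 6. Il1r2, a decoy receptor for interleukin 1, was higher by 3.44 ± 0.25 (adjusted p = 1.95e-09) and in both mole-rats against both outgroups. The granule genes Ltf and Ngp were higher by 2.41 ± 0.25 and 2.40 ± 0.24. Ltf had a mean of 4.54 in the mouse and 8.04 to 8.93 in the others, and Ngp a mean of 8.47 in the Damaraland mole-rat and 4.53 to 5.94 in the others. Antigen presentation genes gave 1 higher (Cd86, 1.20 ± 0.23) and 2 lower (Tap1, -1.96 ± 0.13, and Tap2, -1.17 ± 0.14) of 7, with the peptide transporter Tap1 lower in both mole-rats. Of 17 adhesion and signalling genes 2 were higher and 0 lower, Syk (1.39 ± 0.12) and the integrin gene Itgal (1.31 ± 0.18), and both had their highest mean in the Damaraland liver. Cxcl12 was lower (-1.49 ± 0.27), with means of 7.66 in the Damaraland liver and 11.58 to 12.57 in the others. T cell genes (6 tested) and NK cell genes (1 tested) had 0 calls in the average contrast, and of 6 B cell genes Jchain was higher (1.49 ± 0.16).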

How the data were processed

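The authors deposited 1 table per tissue of values on a log2-like scale after variance stabilisation, with cutadapt, Salmon, DESeq2 and the build GRCm38 named without roles per the submitters' processing notes. How genes were matched across species is not given in the sources used here. Each table also holds columns of other series, 26 in all, which were not used. The transform was inverted in closed form, which gave whole reads for 100% of values (relative tolerance 0.0001). Heart and liver were transformed separately and were not tested against each other. The main test used limma (3.58.1, under R 4.3.3). It took the deposited log2 values, with a coefficient per species, a variance trend and all 14 libraries of a tissue in the fit. Genes with a mean under floor + 1 were left out (20.6 scaled reads in heart, 9.78 in liver). Voom in limma was run on the recovered reads as an alternative. The scripts were tested on simulated data.

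Values in every library are given for the called member with the largest average contrast per tissue and cell type, the 3 largest called differences between the mole-rats per tissue, and Ptprc, Cd68, Cd3e and Cd79a; other members appear by ranges, means or reads, and from other lists at most 3 genes per list. Reads of single libraries given for further members, and the genes and orders singled out among them, were chosen after their values were seen. The members and lists were chosen with earlier results of these data known. Alternatives changed the thresholds, filters, scaling, variance model or library weights, blocked on replicate number, or dropped 1 library at a time.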

Additional observations from a re-analysis of the deposited data

Results flagged for a closer look

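Among 34 groups of 4 or 5 libraries checked for a library far from the others, 3 had one, where chance alone marks about 1 in 20. Csf1r in Damaraland mole-rat heart was 9.72 in replicate 5, against 9.05 to 9.15 in the others. Cd68 in Damaraland mole-rat liver was 9.93 in replicate 2, against 8.88 to 9.18. Cd5l in naked mole-rat liver was 10.14 in replicate 3, below 10.71 to 10.83.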

How the results depend on the processing

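No call of a member in the average contrast changed direction under any alternative in which it was compared. That check did not cover the calls between single species. Without the size threshold heart counts became 5 (average; 67.3% of all genes), 6 (naked against Damaraland; 62.4%) and 2 (guinea pig against mouse; 59.6%), and liver counts 8 (68%) and 9 (67.7%) for the first pair. With voom on recovered reads the heart counts were 3, 4 (41.7% of all genes) and 2, in the same order. Naked against Damaraland heart gave 3 calls without the filter (Cd163, Cd5l and Cd79a; 24.5% of all genes) and 2 with array weights (Cd163 and Csf1r; 30.9%). A test against a difference of 1 (treat) left 3 average (15.7% of all genes) and 2 mole-rat calls (19.8%) in liver, and testing only genes above the table median, which kept 6 members, left 2 average (25%) and 3 guinea pig against mouse calls (34.8%). Fewer genes tested is part of that setting. The cause of the other changes was not tested. Leaving out single libraries gave 1 to 3 calls for naked against Damaraland heart, 0 to 1 for guinea pig against mouse heart, 4 to 5 for the liver average and 7 to 8 for guinea pig against mouse liver. Shares of all genes called were not counted for these fits. In heart, Cd79a passed the filter and was called between the mole-rats without guinea pig replicate 2 or 3, any naked mole-rat replicate, or mouse replicate 2 or 3. Csf1r was called too without naked mole-rat replicate 3. Cd79a entered those fits only through the Damaraland hearts (mean 7.20, against 5.57 to 6.09 in the other species, with the filter at 6.36). Its added calls are therefore no separate support. Cd68 was called between guinea pig and mouse without mouse replicate 3. With 1 mouse liver left, that library is assumed to vary like the other groups, and Cd163 was not tested. A replicate block, with numbers that do not pair animals across species (same-number correlations -0.261 to 0.301 in heart and -0.232 to 0.15 in liver), left the counts at 0, 0, 1 and 0 in heart and 5, 0, 5 and 8 in liver for the average, both mole-rats, naked against Damaraland and guinea pig against mouse. Voom also called Lck (1.53) and Il2rb (-1.38) in the liver average, where it called 37.3% of all genes.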

Other observations

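Genes of neighbouring cell types were counted in the same limma fits. The shares of all genes higher and lower in the average contrast were 10.8% and 12.6% in heart and 15.1% and 13% in liver. In heart, 3 of 10 endothelial genes were higher in the mole-rats in the average contrast and 0 lower, with the clotting protein gene Vwf higher in both mole-rats against both outgroups (1.82 ± 0.21, adjusted p = 1e-06). Stab2, a scavenger receptor of sinusoidal endothelium, was higher by 1.28 ± 0.15, with a mean of 8.03 in the naked mole-rat heart against 6.10 to 6.78 in the others. In liver, 0 of 11 endothelial genes were called in that contrast. Of 9 fibroblast and stellate genes in liver 1 was higher and 2 lower. The matrix proteoglycan gene Dcn was lower in both mole-rats (-3.50 ± 0.20, adjusted p = 9.84e-11), and the growth factor receptor gene Pdgfrb was higher in both (1.61 ± 0.17, adjusted p = 3.38e-07). Epx, the eosinophil peroxidase gene, had a mean of 7.42 in naked mole-rat liver against 4.29 to 5.18 in the other species. The means of those other species lay below the liver filter of 5.29. Epx was thus tested only through the naked mole-rat, and its difference is no separate support.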
